A study of Mus musculus with 12 samples.

Results

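The 9 genes C1qa, C1qb, Csf1r, Lyz2, Ctss, Tyrobp, Adgre1, Cd68 and Fcer1g, widely used to recognise macrophages, were read on Affymetrix Mouse Genome 430A 2.0 microarrays of mouse embryonic fibroblasts (MEFs) under chemical treatment. They were listed by name as macrophage genes, with earlier results of these data known, and are 9 of the 12393 genes on the array with a single gene symbol. They are covered by 13 probe sets, the short sets of oligonucleotides that each report a transcript, and all 9 passed a filter on dim genes that 10674 genes passed. The cultures were treated with SGCF or with 6TCF, and for each arm 2 arrays were read on each of days 0, 5 and 10, which makes 6 groups and 12 arrays. SGCF and 6TCF are code names of chemical combinations, whose contents the labels do not spell out. Per the labels, MEFs came from embryos, were seeded in fibroblast medium with fetal bovine serum, and on the following day were moved to a medium with more serum and basic fibroblast growth factor. Strain and genotype are not in the labels, no array is labelled as an untreated culture at day 5 or 10, and so time in culture and change of medium cannot be told apart from the chemicals. The labels do not say whether the 2 arrays of a group came from separate embryos or cultures, so p-values may measure only technical spread.

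Macrophages are phagocytes of the innate immune system, and those of many tissues are seeded before birth by precursors from the yolk sac and fetal liver. Their survival depends on the receptor Csf1r and its ligands, which fibroblasts among other cells secrete. They take up and digest particles in lysosomes, signal through adaptor proteins with an activation motif called ITAM, and in the resting state are a main source of the complement protein C1q. Whole embryos hold macrophages, so primary MEF cultures can hold some beside the fibroblasts. In RNA from a whole culture, fewer macrophages and less RNA of these genes per cell cannot be told apart.

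Under SGCF all 9 genes fell by day 5 at an adjusted p under 0.05 in limma, where 12.7% of all 10674 genes tested were called lower, and all 9 were still lower at day 10 (18.3% of all genes). Under 6TCF 8 of the 9 fell by day 5 (12.6% of all genes), and 5 of those 8 (C1qa, C1qb, Lyz2, Tyrobp and Adgre1) rose in part from day 5 to day 10 (8.69% of all genes were called higher). Csf1r did not fall under 6TCF. At day 5, 7 of the 9 genes were at the background of the array under 6TCF and 6 under SGCF. At day 10 the count at background was 1 under 6TCF and 6 under SGCF. These counts depend on where the line is drawn. With a lower line, given below, they were 1 under 6TCF and 3 under SGCF at day 5, and 0 and 3 at day 10.

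All levels below are log2(intensity + 16) after quantile normalization between arrays, and a change is a difference on that scale. The added 16 makes the change of a dim gene look smaller than it is. A change was called at a Benjamini-Hochberg adjusted p under 0.05 in limma, fitted over all 10674 genes and 12 arrays, and every adjusted p below is from that fit. The background of an array was set as the 95th percentile of 35 genes of the pancreas, germ cells, milk and other specialised tissues that fibroblasts and macrophages are not known for, and lay between 6.13 and 6.76. Of these 35 genes, 15 passed the filter on dim genes, so the line is a high one. A gene was counted at background in a group where both arrays were at or below the line. The share of all genes at or below it is not given. Levels of different genes are not compared, because probe sets differ in how strongly they bind. The share of all genes called higher against day 0 is not given, so counts of higher genes in the lists below stand without it.

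Of 11 fibroblast genes on the array, 0 were at background in any group, though many changed: by day 5, 5 were lower and 2 higher under SGCF and 4 lower and 5 higher under 6TCF, and at day 10 against day 0, 3 were lower and 5 higher under SGCF and 6 lower and 5 higher under 6TCF. Lymphocyte genes were at background in all 6 groups, 8 of 8 measured. The median intensity of an array, as deposited, was 60.9 to 86.2 for SGCF and 102.4 to 142 for 6TCF, so brightness coincided with the arm, and a processing batch and the arm cannot be told apart. The excess of the 3' over the 5' actin control, a sign of RNA wear, was 0.33 ± 0.08, 0.45 ± 0.04 and 0.46 ± 0.01 at days 0, 5 and 10 of SGCF on the log2 scale (SD, n = 2 each). In the 6TCF arm it was 0.34 ± 0.06, 0.82 ± 0.08 and 1.04 ± 0.004 (SD, n = 2 each). The same measure for Gapdh was -0.02 ± 0.05, 0.10 ± 0.09 and 0.11 ± 0.02 at days 0, 5 and 10 of SGCF and 0.39 ± 0.07, 0.50 ± 0.13 and 0.49 ± 0.0008 on those days of 6TCF (SD, n = 2 each). The part of either in the changes below was not tested.

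Promoters are shown for 4 of the genes, since the genes moved together. Of the 9 genes, 5 (C1qb, Lyz2, Ctss, Cd68 and Fcer1g) matched the RefSeq promoter table of mouse build GRCm38.p6, which gives 250 bases before and 50 after the start of each gene. The windows lie at chr4:136886151-136886450 for C1qb, chr3:95526536-95526835 for Ctss, chr11:69666121-69666420 for Cd68 and chr10:117282223-117282522 for Lyz2, on the minus strand except for Ctss, which is on the plus strand. Capitals mark GAGGAA, or TTCCTC where it reads on the opposite strand, the core of the site bound by PU.1, a transcription factor of the myeloid lineage.
C1qb: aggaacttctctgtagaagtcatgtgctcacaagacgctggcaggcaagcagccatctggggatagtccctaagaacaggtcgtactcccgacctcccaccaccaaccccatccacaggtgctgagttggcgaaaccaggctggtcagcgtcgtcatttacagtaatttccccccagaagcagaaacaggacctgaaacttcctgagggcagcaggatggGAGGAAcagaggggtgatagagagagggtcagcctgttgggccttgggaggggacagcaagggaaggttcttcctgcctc
Ctss: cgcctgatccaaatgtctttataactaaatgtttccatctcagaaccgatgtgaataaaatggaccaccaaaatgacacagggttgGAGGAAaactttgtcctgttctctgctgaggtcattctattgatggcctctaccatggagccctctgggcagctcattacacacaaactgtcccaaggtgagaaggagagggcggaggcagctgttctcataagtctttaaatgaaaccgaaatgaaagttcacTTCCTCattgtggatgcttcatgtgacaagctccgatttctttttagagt
Cd68: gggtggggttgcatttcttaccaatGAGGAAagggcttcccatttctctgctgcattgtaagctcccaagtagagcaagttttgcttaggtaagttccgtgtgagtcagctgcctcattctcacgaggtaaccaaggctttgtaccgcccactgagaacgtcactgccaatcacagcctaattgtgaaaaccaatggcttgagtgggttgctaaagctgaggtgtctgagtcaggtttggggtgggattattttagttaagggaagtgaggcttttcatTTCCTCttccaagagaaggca
Lyz2: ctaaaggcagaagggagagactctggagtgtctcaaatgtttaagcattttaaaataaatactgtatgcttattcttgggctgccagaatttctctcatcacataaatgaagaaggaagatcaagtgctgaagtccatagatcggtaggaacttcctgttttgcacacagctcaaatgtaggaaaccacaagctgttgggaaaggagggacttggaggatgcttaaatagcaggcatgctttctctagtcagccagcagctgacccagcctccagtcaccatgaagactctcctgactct

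GAGGAA on either strand was found in 3 of the 5 windows, and 28.3% of all 32851 promoters in the table hold it. C1qb had 1 copy, at position -30 from the start site. Ctss had 1 on the gene strand at -164 and 1 on the opposite strand at 1, and Cd68 had 1 on the gene strand at -225 and 1 on the opposite strand at 30. The windows of Lyz2 and Fcer1g held none of these letters. TATAAA, the letters of the TATA box, was in the Ctss window alone and in 13.6% of all promoters, and TGACTCA, the AP-1 site, was in the Cd68 window alone and in 5.2% of all promoters, both searched on both strands. In the Ctss window it reads as TTTATA, on the opposite strand and at the end far from the start site. Whether it serves as a TATA box was not tested. All 5 genes, with these letters in the window or without them, fell by day 5 in both arms. A role of PU.1 in the falls was not tested.

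The C1q genes encode the recognition subunit of the classical complement pathway, which is built from the chains C1qa, C1qb and C1qc. The genes stand next to each other in the RefSeq gene table, in the order C1qb, C1qc, C1qa. Under SGCF, C1qa read 9.29 and 9.35 at day 0, 5.29 and 5.38 at day 5, and 4.84 and 4.95 at day 10. With 6TCF it read 7.62 and 7.30 at day 0, 4.87 and 5.14 at day 5, and 5.54 and 5.63 at day 10. All day 5 and day 10 arrays lay below all day 0 arrays in both arms, and C1qa was at background in 4 groups, days 5 and 10 of each arm. Taken 1 step at a time, both arrays lay below both of day 0 for 26.6% of all genes at day 5 and 30.3% at day 10 of SGCF. Under 6TCF these shares were 32.9% and 39%. By day 5 it changed by -3.98 ± 0.14 under SGCF (SE, n = 2 arrays a group, adjusted p = 3.97e-09) and by -2.45 ± 0.14 under 6TCF (adjusted p = 1.26e-07). Between days 5 and 10 C1qa changed by -0.44 ± 0.14 under SGCF (adjusted p = 0.039) and by 0.57 ± 0.14 under 6TCF (adjusted p = 0.0179). Both of those steps lie within the background range, and the 6TCF day 10 arrays lay above the 6TCF day 5 arrays (32% of all genes).

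C1qb, read by the brightest of its 3 probe sets, had 8.37 and 8.70 at day 0, 5.05 and 5.05 at day 5, and 4.69 and 4.87 at day 10 of SGCF. On the 6TCF arrays it had 7.25 and 7.49 at day 0, 4.78 and 5.52 at day 5, and 6.36 and 6.04 at day 10. It was at background in the same SGCF groups as C1qa, and at day 5 of 6TCF; at day 10 of 6TCF, 1 of the 2 arrays was above background. The change by day 5 was -3.49 ± 0.22 under SGCF (adjusted p = 2.38e-07) and -2.22 ± 0.22 under 6TCF (adjusted p = 1.08e-05). From day 5 to day 10 it was -0.27 ± 0.22 under SGCF (adjusted p = 0.406) and 1.05 ± 0.22 under 6TCF (adjusted p = 0.00893). The other C1qb probe sets also rose late under 6TCF, by 0.59 (adjusted p = 0.0362) and by 1.02 (adjusted p = 0.00187), in a fit of 17128 probe sets of which 6.77% were called higher.

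Csf1r encodes the receptor for the growth factors Csf1 and Il34 and was the exception among the 9. Its brightest probe set read 9.52 and 9.21 at day 0, 6.56 and 6.61 at day 5, and 6.66 and 6.58 at day 10 of SGCF. With 6TCF it read 8.10 and 8.17 at day 0, 8.25 and 8.34 at day 5, and 8.21 and 7.96 at day 10, all above background. The SGCF arrays of days 5 and 10 lay below every 6TCF array, and the SGCF arrays of day 0 lay above every 6TCF array. On the same day, SGCF lay below 6TCF for 29.3% of all genes at day 5 and 32.5% at day 10, and above it for 31.9% at day 0. Under SGCF, Csf1r changed by -2.78 ± 0.13 by day 5 (adjusted p = 4.26e-08) and by 0.04 ± 0.13 from day 5 to day 10 (adjusted p = 0.858). Under 6TCF the change by day 5 was 0.16 with a 95% interval of ± 0.29 (adjusted p = 0.416), and by day 10 it was -0.05 ± 0.29 (adjusted p = 0.806), so a fall as large as that of the other genes lies outside these intervals.

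The 3 Csf1r probe sets differed in size. The next brightest read 7.87 and 7.75 at day 0, 6.48 and 6.91 at day 5, and 6.47 and 6.18 at day 10 of SGCF, against 6.55 and 6.56, 7.23 and 6.98, and 6.73 and 6.67 on the same days of 6TCF. It changed by -1.11 by day 5 of SGCF (adjusted p = 0.000302) and rose by 0.56 by day 5 of 6TCF (adjusted p = 0.0235). The dimmest stayed close to background on all 12 arrays, and changed by -0.37 under SGCF (adjusted p = 0.182) and by 0.04 under 6TCF (adjusted p = 0.899). Under 6TCF, 0 of the 3 were called lower at day 5 (13.5% of all probe sets) or at day 10 (21.6%). The difference between the arms at day 10 was -1.46 by the brightest and called, but -0.38 by the next (adjusted p = 0.0988) and 0.01 by the dimmest (adjusted p = 0.981).

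**Figure D1:**
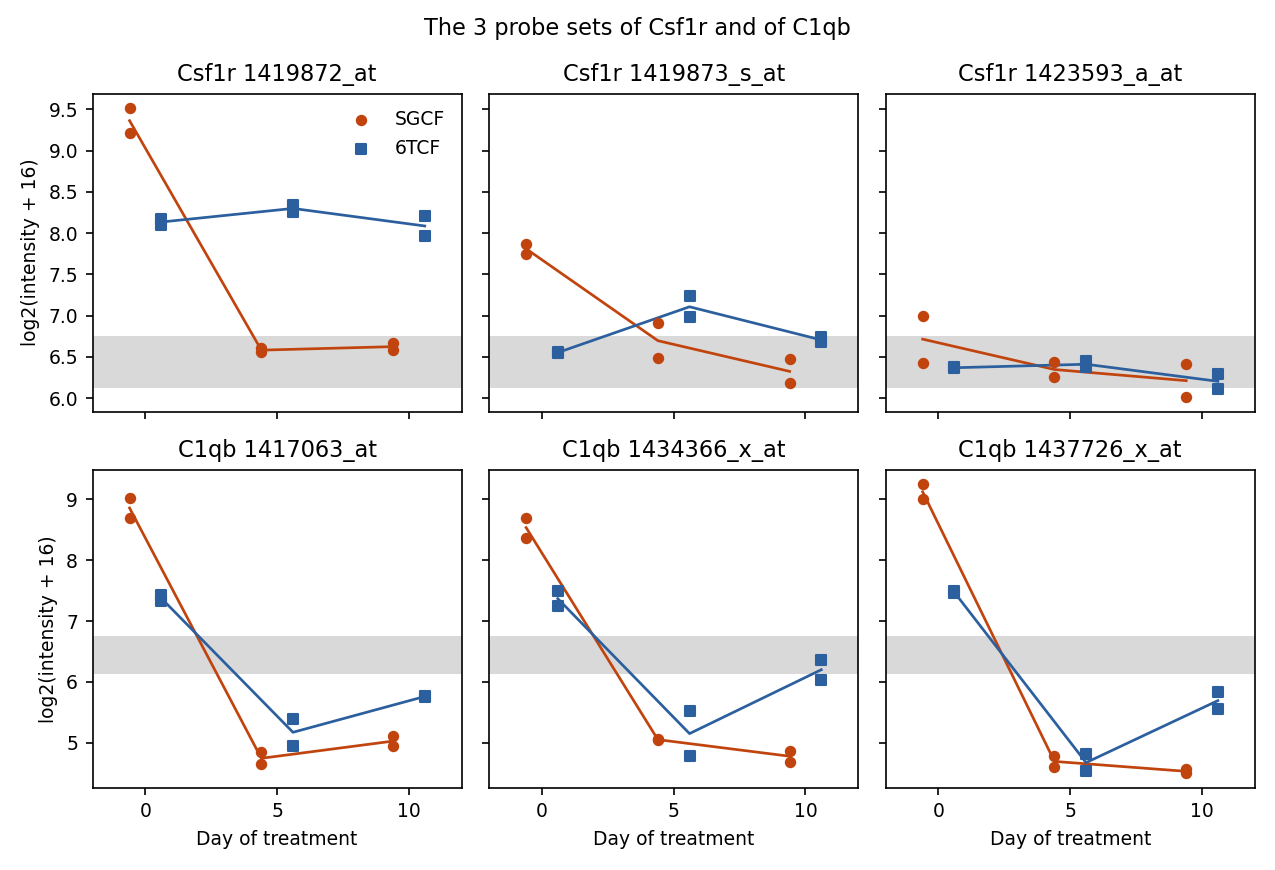
Level of each of the 3 probe sets of Csf1r (top) and of C1qb (bottom) on each array, as log2(intensity + 16) after normalization, against day of treatment; points are arrays (SGCF drawn left of 6TCF), lines join group means, and the grey band spans the background of the 12 arrays, 6.13 to 6.76. The C1qb probe sets trace one shape in each arm, while the brightest Csf1r probe set (top left) stays at 7.96 to 8.34 under 6TCF and the dimmest (top right) stays near the band in both arms.

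Tyrobp and Fcer1g encode small membrane adaptors that carry the ITAM motif. Tyrobp, also called DAP12, pairs with receptors such as Trem2, and Fcer1g is the common gamma chain of activating Fc receptors, used also by mast cells, basophils and natural killer cells. Tyrobp read 9.16 and 9.33 at day 0, 5.78 and 5.23 at day 5, and 4.92 and 5.16 at day 10 of SGCF, against 7.61 and 7.64, 5.75 and 5.93, and 6.50 and 6.74 on those days of 6TCF. Both adaptors were at or close to background on every SGCF array after day 0, but at day 10 of 6TCF Tyrobp was above background on both arrays. By day 5 Tyrobp changed by -3.73 ± 0.18 under SGCF (adjusted p = 3.88e-08) and by -1.78 ± 0.18 under 6TCF (adjusted p = 1.24e-05). The late step was -0.47 ± 0.18 under SGCF (adjusted p = 0.0801) and 0.78 ± 0.18 under 6TCF (adjusted p = 0.0137).

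Fcer1g read 8.84 and 8.80 at day 0, 6.48 and 6.39 at day 5, and 6.28 and 6.06 at day 10 of SGCF. Its 6TCF values were 7.50 and 7.44 at day 0, 6.28 and 6.11 at day 5, and 6.24 and 6.26 at day 10. The day 5 and day 10 arrays of 6TCF overlapped, unlike those of Tyrobp. Fcer1g changed by -2.38 ± 0.12 under SGCF (adjusted p = 5.78e-08) and by -1.27 ± 0.12 under 6TCF (adjusted p = 8.39e-06) by day 5, and then by 0.05 under 6TCF with a 95% interval of ± 0.26 (adjusted p = 0.818). Whether the late steps of Tyrobp and Fcer1g differ from each other was not tested.

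Lyz2, Ctss and Cd68 belong to the digestive machinery. Lyz2 encodes lysozyme M, which cleaves bacterial cell walls and is also made by neutrophils. A probe for it may bind the closely related Lyz1 as well. Lyz2 read 11.45 and 11.92 at day 0, 7.92 and 7.33 at day 5, and 6.88 and 7.66 at day 10 of SGCF, and 10.60 and 10.47, 7.89 and 8.27, and 9.69 and 9.55 on those days of 6TCF. It was the only one of the 9 above background on all 12 arrays. The change by day 5 was -4.06 ± 0.26 under SGCF (adjusted p = 3.34e-07) and -2.46 ± 0.26 under 6TCF (adjusted p = 2.19e-05). Its late rise under 6TCF, 1.54 ± 0.26 (adjusted p = 0.00333), was the largest among the 9, and the SGCF arrays of days 5 and 10 overlapped (-0.36 ± 0.26, adjusted p = 0.367).

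Ctss encodes cathepsin S, a protease that trims the invariant chain of MHC class II in antigen-presenting cells. It read 9.78 and 9.61 at day 0, 6.31 and 5.38 at day 5, and 5.10 and 5.71 at day 10 of SGCF. In the 6TCF arm it read 9.09 and 9.12 at day 0, 5.57 and 6.22 at day 5, and 6.33 and 6.39 at day 10. All arrays of days 5 and 10 lay below all arrays of day 0 in both arms (26.6% to 39% of all genes for a single such step). The replicates at day 5 were the least alike of the 9 genes under SGCF. The change by day 5 was -3.85 ± 0.29 under SGCF (adjusted p = 1.17e-06) and -3.21 ± 0.29 under 6TCF (adjusted p = 5.68e-06), the largest fall under 6TCF. Its late step under 6TCF did not pass the test, at 0.46 with a 95% interval of ± 0.63 (adjusted p = 0.289).

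Cd68 encodes a heavily glycosylated protein of the late endosome and lysosome. It read 8.10 and 7.90 at day 0, 6.25 and 6.15 at day 5, and 6.23 and 6.60 at day 10 of SGCF, against 7.28 and 7.05, 6.32 and 6.17, and 6.42 and 6.32 on those days of 6TCF. After day 0 the arms overlapped and lay at or near background, and this gene had the smallest range of the 9. By day 5 it changed by -1.80 ± 0.15 under SGCF (adjusted p = 2.81e-06) and by -0.92 ± 0.15 under 6TCF (adjusted p = 0.000607), with a late step under 6TCF of 0.12 and a 95% interval of ± 0.32 (adjusted p = 0.62).

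Adgre1 encodes F4/80, the surface receptor most used to stain mouse macrophages. It read 7.82 and 7.88 at day 0, 5.38 and 5.23 at day 5, and 5.54 and 5.47 at day 10 of SGCF, and 6.90 and 7.02, 5.70 and 5.83, and 6.57 and 6.46 on those days of 6TCF. No 2 of its 6 groups overlapped, though the share of all genes with this pattern is not given. The change by day 5 was -2.54 ± 0.12 under SGCF (adjusted p = 3.12e-08) and -1.20 ± 0.12 under 6TCF (adjusted p = 1.13e-05). The late step was 0.20 ± 0.12 under SGCF (adjusted p = 0.258) and 0.75 ± 0.12 under 6TCF (adjusted p = 0.00216), and both 6TCF arrays of day 10 were above background.

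**Figure D2:**
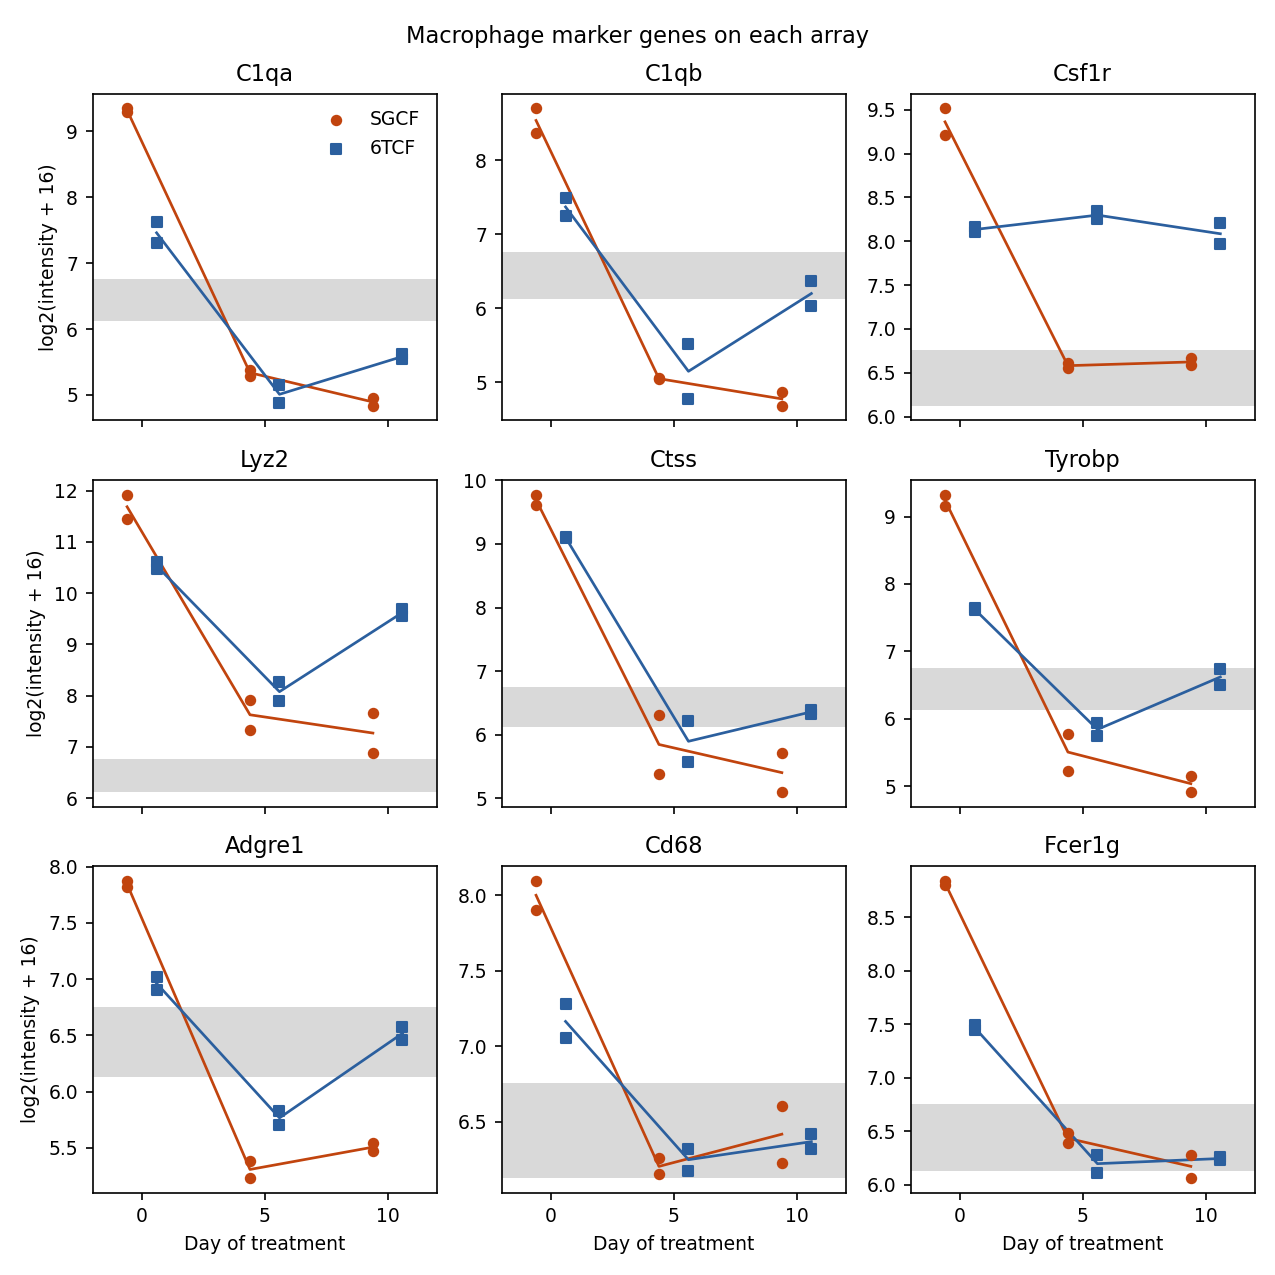
Level of each of the 9 genes on each array, as log2(intensity + 16) after normalization, against day of treatment; points are arrays (SGCF drawn left of 6TCF), lines join group means, and the grey band spans the background of the 12 arrays, 6.13 to 6.76. All 9 start higher in the SGCF arm, though Ctss does not without normalization between arrays, and drop there by day 5, Csf1r stays level in the 6TCF arm, and Lyz2 stays above the band throughout.

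Set against all genes, the count of the 9 called lower by day 5 was 9 of 9 under SGCF, where 12.7% of the 10674 genes were called lower, and 8 of 9 under 6TCF, where 12.6% were. The median change of the 9 was -3.49 under SGCF and -1.78 under 6TCF, while the median of all genes was 0.02 under SGCF and -0.0004 under 6TCF. At day 10 against day 0, 9 of 9 were lower under SGCF (18.3% of all genes) with a median of -3.76, and 8 of 9 under 6TCF (20% of all genes) with a median of -1.01. The fall at day 10 of SGCF ran from -1.58 for Cd68 to -4.43 for C1qa. Under 6TCF it ran from -0.45 for Adgre1 (adjusted p = 0.00876) to -2.74 for Ctss (adjusted p = 1.26e-05), Csf1r aside. Leaving out single arrays left 6 to 8 of the 9 called lower at day 10 of 6TCF.

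From day 5 to day 10, 5 of 9 rose under 6TCF, where 8.69% of all genes were called higher, and 0 of 9 rose under SGCF, where 11.7% were called higher and C1qa alone of the 9 was called lower (9.97% of all genes). Whether the late step differs between the arms or between the genes was not tested. Lyz2, above background on all days, regained 62.8% of its 6TCF fall on the log2 scale. No share is given for C1qa, C1qb, Tyrobp and Adgre1, which were at background at day 5, so that the size of neither their fall nor their rise was measured. The genes that fell under 6TCF without a called rise were Ctss, Cd68 and Fcer1g, and both Ctss arrays of day 10 lay above both of day 5, as for the 5 called genes and for 32% of all genes. The late rises rest on 2 arrays a group: without replicate 1 of 6TCF day 5 only Adgre1 remained called, and 3 of the 5 remained called without either 6TCF array of day 10. Without replicate 1 of 6TCF day 5, 3.49% of all genes were called in either direction, against 15.8% with all arrays. With a larger added constant, 64 in place of 16, C1qa (0.26, adjusted p = 0.0771) and C1qb (0.28, adjusted p = 0.0862) also fell short of a call. The late step of C1qa under SGCF, from day 5 to day 10, was not called without normalization between arrays (-0.31, adjusted p = 0.433).

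**Figure D3:**
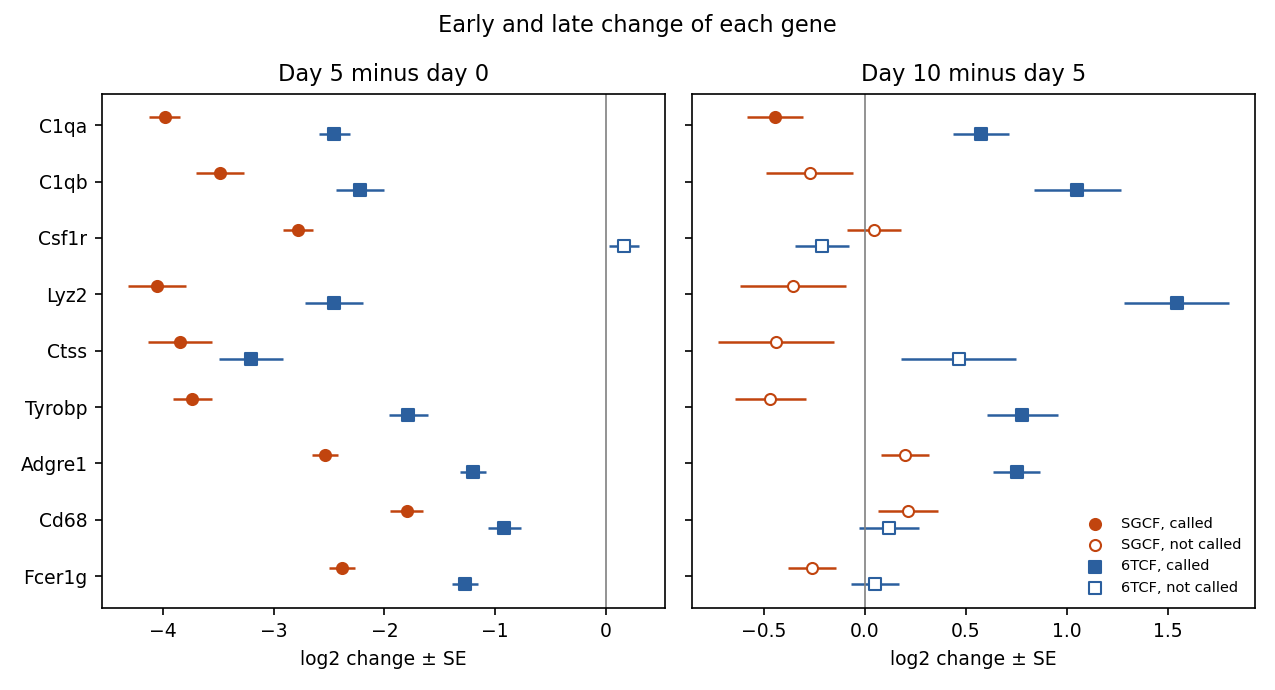
Log2 change ± SE of each of the 9 genes from day 0 to day 5 (left) and from day 5 to day 10 (right), from the limma fit over 12 arrays; circles are SGCF and squares 6TCF, and filled symbols passed the adjusted p of 0.05. All SGCF symbols lie at -1.80 or below on the left, and on the right the 5 filled squares lie between 0.57 and 1.54. The scales of the panels differ.

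Which genes sat at background depended on where the line was drawn. With the line above, the 7 at day 5 of 6TCF were all but Csf1r and Lyz2, and C1qa was the 1 left at day 10. Under SGCF the 6 at day 5 were C1qa, C1qb, Ctss, Tyrobp, Adgre1 and Cd68, and at day 10 Fcer1g took the place of Cd68, which had 1 array above. Csf1r and Fcer1g each had 1 of 2 arrays at background at day 5 of SGCF. With a lower line, the 75th percentile of the same 35 genes, the counts at days 5 and 10 were 3 and 3 under SGCF and 1 and 0 under 6TCF. A gene at background has only an upper bound there, so the sizes of these falls may be understated in both arms. At day 0, 0 of the 9 were at background in either arm.

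The arms already differed at day 0. In the SGCF arm 8 of the 9 genes were higher than in the 6TCF arm (8.59% of all genes were called higher), with a median difference of 1.17 against 0.02 over all genes. The difference ran from 0.84 for Cd68 (adjusted p = 0.00409) to 1.86 for C1qa (adjusted p = 2.25e-05), and for Ctss it was 0.59 with a 95% interval of ± 0.63 (adjusted p = 0.176). The labels place these arrays at day 0 of each combination, and do not say whether the chemicals had been added. Without normalization between arrays 3 of the 9 were called higher, and Ctss turned to -0.22. Brightness coincided with the arm, so the size of this difference cannot be told apart from a batch.

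At day 5 the arms were close for most of the 9. SGCF was lower than 6TCF for 2 of 9 (12.8% of all genes), Csf1r at -1.72 ± 0.13 (adjusted p = 4.1e-06) and Adgre1 at -0.46 ± 0.12 (adjusted p = 0.0155). The other 7 differed by -0.45 to 0.33. Without normalization between arrays the count was 7 of 9. The Csf1r value is that of its brightest probe set, and neither other probe set was called. Over the alternatives the Csf1r difference at day 5 ran from -2.51 to -0.064. At day 10, SGCF was lower for 7 of 9 (14.1% of all genes), from -0.69 ± 0.14 for C1qa (adjusted p = 0.00351) to -2.35 ± 0.26 for Lyz2 (adjusted p = 5.61e-05). Cd68 differed by 0.05 ± 0.32 and Fcer1g by -0.07 ± 0.26 at day 10 (95% intervals), neither called. Without normalization between arrays both were called lower in SGCF, Cd68 at -0.75 (adjusted p = 0.00153) and Fcer1g at -0.85 (adjusted p = 0.000318). In the order of the group means, day 0 of SGCF stood highest for all 9 genes, and day 0 of 6TCF came next for all but Csf1r, where day 5 of 6TCF did. Day 10 of 6TCF followed for C1qa, C1qb, Lyz2, Ctss, Tyrobp and Adgre1 without overlapping its neighbours in that order. With 2 arrays a group such gaps are common. Both 6TCF day 10 arrays lay above both of day 5 for 32% of all genes, and below both of day 0 for 39%. Neighbouring groups overlapped at 1 place for C1qa, C1qb and Tyrobp, at 2 for Csf1r, Lyz2, Ctss and Fcer1g, at 3 for Cd68 and at 0 for Adgre1, always below day 0 of SGCF.

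**Figure D4:**
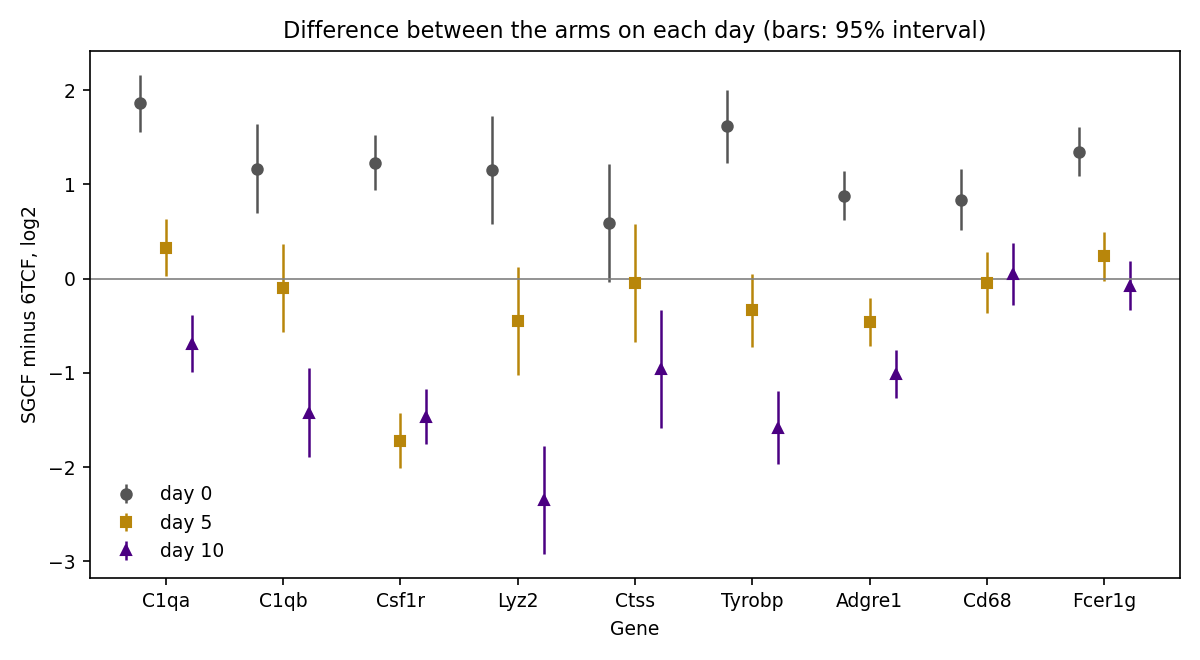
Difference between the arms, SGCF minus 6TCF, in the log2 level of each of the 9 genes at days 0, 5 and 10, with 95% intervals from the limma fit. At day 0 all 9 points are above 0 (Ctss is below 0 without normalization between arrays), and at day 5 most lie near 0 apart from Csf1r at -1.72. At day 10 7 points lie between -0.69 and -2.35 while Cd68 and Fcer1g are near 0. Csf1r is drawn by its brightest probe set, and its other probe sets gave no call at day 5 or day 10.

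Tested as a difference of changes, the measured change by day 5 was more negative under SGCF for 8 of 9 genes (6.06% of all genes were called in that direction) and the change by day 10 for 9 of 9 (13.4% of all genes). A fall that ends at background is a lower bound. By day 5 these values do not show which fall was larger, except for Lyz2 and the brightest Csf1r probe set, above background at day 5 of 6TCF. By day 10 they do not for C1qa, nor clearly for C1qb, with 1 of 2 arrays at background at day 10 of 6TCF. Ctss, Cd68 and Fcer1g averaged only 0.23, 0.23 and 0.11 above the line there, so the same limit applies. Between the arms, Cd68 differed by 0.84 at day 0 and 0.05 at day 10, and Fcer1g by 1.35 and -0.07. The median difference of changes was -1.34 by day 5 and -2.55 by day 10, against 0.01 and 0.01 over all genes. By day 5 it was largest for Csf1r by its brightest probe set, at -2.95 ± 0.19 (adjusted p = 4.04e-06). For Ctss it did not pass the test, at -0.64 ± 0.41 (adjusted p = 0.388). Over the alternatives, other probe sets among them, the Csf1r value ran from -3.18 to -0.41 by day 5. By day 10 the Csf1r value ran from -2.90 to -0.34 over them. By day 10 the difference of changes was largest for Lyz2, at -3.50 ± 0.37 (adjusted p = 8.2e-05), and smallest for Cd68, at -0.79 ± 0.21 (adjusted p = 0.0188). Beside these values stand the levels: apart from Csf1r, Adgre1 and Lyz2, the arms differed by -0.34 to 0.33 at day 5, all of them at or near background, and by 0.59 to 1.86 at day 0. Without replicate 2 of SGCF day 5 the count by day 5 was 5 of 9, and without normalization between arrays C1qb (-0.94, adjusted p = 0.113) and Cd68 (-0.84, adjusted p = 0.0945) did not pass. The comparisons by day 5 and by day 10 share their day 0 arrays.

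Over the 12 arrays the 9 profiles were close to one another. Each gene's Pearson r with the mean of the other 8 was 0.93 to 0.99, except Csf1r at 0.81, as a description of arrays that share groups. Among 683 other genes whose group means spanned at least 2 on the log2 scale, the 6 most like the mean of the 9 were Lcp1 (r = 0.984), Laptm5 (0.980), C1qc (0.980), Fcgr3 (0.979), Ctla2b (0.971) and Plaat3 (0.971). Lcp1 encodes the leukocyte actin-bundling protein L-plastin, Laptm5 a lysosomal membrane protein of blood cells, C1qc the remaining C1q chain and Fcgr3 an Fc receptor that signals through Fcer1g. Ctla2b, whose probes may also read the near-identical Ctla2a, and Plaat3, a phospholipase and acyltransferase, are in none of the lists used here. C1qc averaged 7.67, 5.00 and 4.87 at days 0, 5 and 10 of SGCF and 6.63, 5.06 and 5.27 on those days of 6TCF.

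Most other macrophage genes also fell under SGCF. Of 26 further macrophage genes, 22 were tested. By day 5, 17 of 22 were lower and 1 higher under SGCF, with a median of -1.04, and 10 were lower and 3 higher under 6TCF, with a median of -0.47. Of the 25 on the array, 16 were already at background at day 0 of 6TCF and 11 at day 0 of SGCF. A gene at background at day 0 has little room to fall, so these counts and medians do not compare the arms on equal footing. From day 5 to day 10, 0 of 22 were called in either direction under SGCF and 7 were higher under 6TCF (8.69% of all genes). Mpeg1, the pore-forming perforin-2, changed by -3.36 under SGCF (adjusted p = 5.46e-08) and by -2.48 under 6TCF (adjusted p = 4.94e-07) by day 5, with no called late step. Ms4a7, a membrane protein of tissue macrophages, changed by -2.87 under SGCF (adjusted p = 6.58e-06) and by -1.31 under 6TCF (adjusted p = 0.00257), and then rose by 1.07 under 6TCF (adjusted p = 0.0186).

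Fcgr3 changed by -2.71 under SGCF (adjusted p = 2.13e-07) and by -1.02 under 6TCF (adjusted p = 0.000566) by day 5, then rose by 0.69 under 6TCF (adjusted p = 0.017). Pf4, a chemokine of platelets that fetal macrophages also express, went the other way under 6TCF. It rose by 1.38 by day 5 (adjusted p = 0.000119), to a mean of 8.12, against 6.75 at day 0, and changed by -0.15 under SGCF (adjusted p = 0.592). Cd14 was called higher by day 5 in both arms, by 0.58 under SGCF and 0.76 under 6TCF. Spi1, which encodes PU.1, was called higher by 0.39 under 6TCF and lower under SGCF, at -0.37. The summed intensity of the list on the log2 scale was 11.57 to 11.69, 9.99 to 10.25 and 10.06 to 10.12 at days 0, 5 and 10 of SGCF, and 10.56 to 10.59, 10.16 to 10.19 and 10.68 to 10.70 on those days of 6TCF.

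Genes shared by leukocytes, 14 tested, had 10 lower and 1 higher under SGCF by day 5 (median -1.13) and 5 lower and 0 higher under 6TCF (median -0.27). The same limit holds here, since 9 of the 14 were at background at day 0 of 6TCF and 4 at day 0 of SGCF. Laptm5 changed by -2.56 under SGCF (adjusted p = 5.63e-07) and by -1.80 under 6TCF (adjusted p = 1.09e-05), and Cd52, a small surface glycoprotein of leukocytes, by -2.44 under SGCF (adjusted p = 7.25e-07) and by -1.23 under 6TCF (adjusted p = 0.000205). Arhgdib rose by 0.95 under SGCF (adjusted p = 0.000365), and Cd53, a tetraspanin, changed by -0.16 under SGCF (adjusted p = 0.598). Of 9 tested partners and kinases of the ITAM adaptors, 6 were lower under SGCF and 5 under 6TCF by day 5, with 0 higher in either arm. Of the 10 on the array, 7 were at background at day 0 of 6TCF and 4 at day 0 of SGCF. Trem2, the receptor that pairs with Tyrobp, changed by -1.36 under SGCF (adjusted p = 0.000159) and by -0.49 under 6TCF (adjusted p = 0.0681). Clec4n, dectin-2, which signals through Fcer1g, changed by -0.79 under SGCF (adjusted p = 0.0619) and by -0.16 under 6TCF (adjusted p = 0.733) by day 5, and then rose by 1.22 under 6TCF (adjusted p = 0.0152). These lists share genes, Fcgr3 and Trem2 among them.

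General lysosomal genes, which every cell uses, did not share the fall of Lyz2, Ctss and Cd68. Of 14 tested, 4 were higher and 1 lower under SGCF and 6 higher and 0 lower under 6TCF by day 5. Of all genes, 12.7% under SGCF and 12.6% under 6TCF were called lower by then. At day 10 against day 0, 12 were higher and 1 lower under SGCF and 9 higher and 0 lower under 6TCF. Ctsb, a lysosomal cysteine protease, rose by 1.48 under SGCF (adjusted p = 6.86e-06) and by 1.31 under 6TCF (adjusted p = 1.62e-05) by day 10, and Ctsl, a protease of the same family, by 1.11 under SGCF (adjusted p = 1.14e-05) and by 0.89 under 6TCF (adjusted p = 6.3e-05). Npc2, which hands cholesterol out of the lysosome, rose by 0.79 under SGCF (adjusted p = 0.000114) and by 0.68 under 6TCF (adjusted p = 0.000339).

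**Figure D5:**
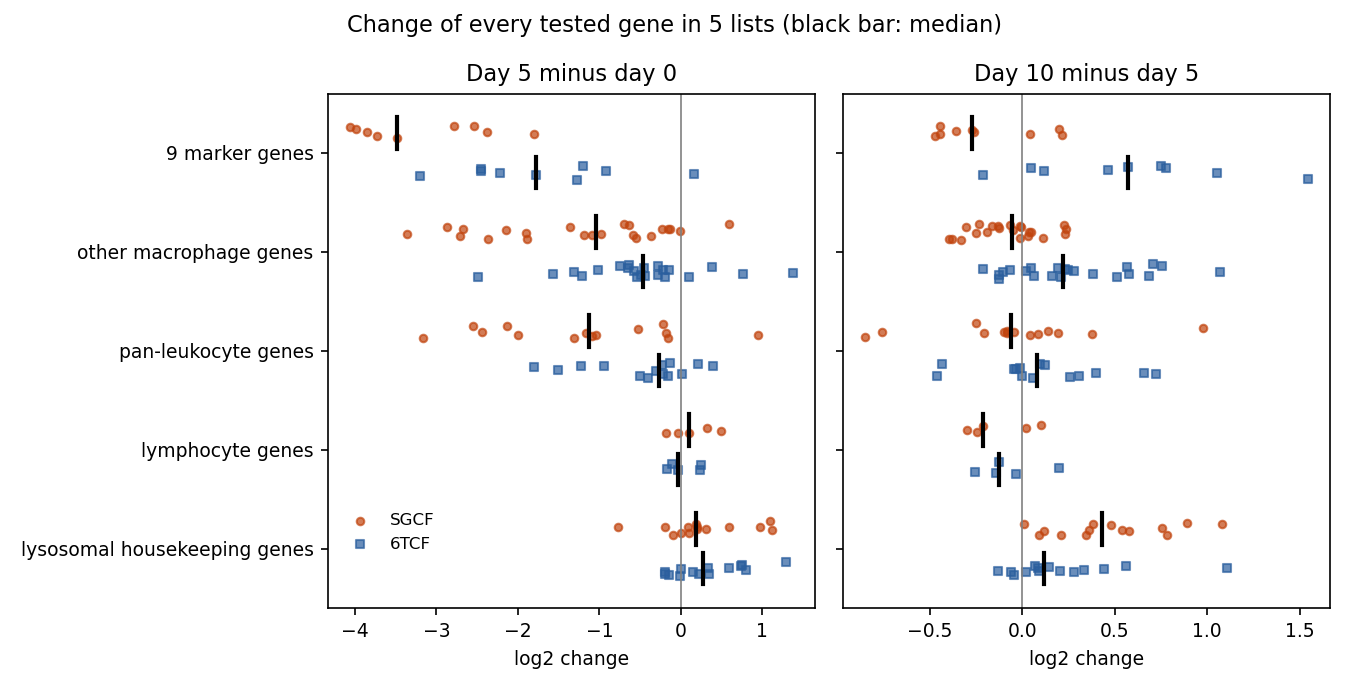
Log2 change of each tested gene in 5 gene lists from day 0 to day 5 (left) and from day 5 to day 10 (right); circles are SGCF, squares 6TCF, and black bars are medians. On the left the 9 marker genes reach the lowest median, -3.49 under SGCF, while the lymphocyte genes, which are at background, and the lysosomal housekeeping genes lie around 0. The scales of the panels differ.

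Of 8 tested ligands that support or attract macrophages, 3 were lower and 1 higher under SGCF and 3 lower and 3 higher under 6TCF by day 5. Csf1, the growth factor bound by Csf1r, changed by -0.34 under SGCF (adjusted p = 0.21) and by -0.75 under 6TCF (adjusted p = 0.00989) by day 5, the arm in which Csf1r itself did not fall. Cxcl12, a chemokine of stromal cells, changed by -3.60 under SGCF (adjusted p = 7.28e-08) and by -2.13 under 6TCF (adjusted p = 5.01e-06). Gas6, a bridge between dying cells and receptors on phagocytes, changed by 1.14 under SGCF (adjusted p = 0.000319) and by 2.06 under 6TCF (adjusted p = 2.67e-06) at day 10 against day 0. Ccl2, a chemokine that draws monocytes, rose by 0.55 under SGCF (adjusted p = 0.025) and changed by 0.21 under 6TCF (adjusted p = 0.377) by day 5.

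Genes of alternative macrophage activation split, with 1 lower and 1 higher of 7 tested under SGCF and 3 lower and 3 higher under 6TCF by day 5. Mrc1, the mannose receptor, changed by -2.37 under SGCF (adjusted p = 2.11e-07) and by -0.45 under 6TCF (adjusted p = 0.0347), and rose by 0.51 late under 6TCF (adjusted p = 0.0319). Retnla, a secreted protein that several cell types make, rose instead: its group means were 5.08, 5.71 and 6.80 at days 0, 5 and 10 of SGCF and 4.94, 6.05 and 8.80 on those days of 6TCF. Ccl8, a chemokine, had means of 6.76, 7.79 and 9.73 in the SGCF series and 5.51, 9.64 and 12.08 in the 6TCF series. At day 10 against day 0 Ccl8 rose by 2.98 under SGCF (adjusted p = 8.94e-07) and by 6.57 under 6TCF (adjusted p = 1.98e-09). Il4ra, the receptor chain for interleukin 4, rose by 0.43 under SGCF (adjusted p = 0.0359) and by 1.66 under 6TCF (adjusted p = 3.57e-06) over the same days.

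Osteoclasts, the bone-resorbing relatives of macrophages, also use Csf1r and Tyrobp. Of 6 tested osteoclast genes, 2 were lower under SGCF and 1 lower and 1 higher under 6TCF by day 5, and 5 of 7 on the array were at background in every group. Ctsk, a collagen-degrading cathepsin that fibroblasts also express, rose by 0.55 under SGCF (adjusted p = 0.00642) and by 0.92 under 6TCF (adjusted p = 0.000169) by day 10. Markers of other blood cells gave little signal. Of 9 neutrophil genes, which could share Lyz2, 8 or 9 were at background in each SGCF group and 7 to 9 in each 6TCF group, and of 8 mast cell genes, which could share Fcer1g, 8 were at background in each SGCF group and 7 or 8 in each 6TCF group. Of 9 genes of dendritic cells and MHC class II, 8 or 9 were at background under SGCF and 7 to 9 under 6TCF, and all 5 erythroid genes were at background in all 6 groups.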

How the data were processed

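Total RNA of mouse embryonic fibroblasts was hybridised to 12 one-colour arrays, and the values used are the deposited linear intensity values of 22690 probe sets per array. Per the submitters' processing notes, RMA, MAS5 and limma were used, but not which made the values. The array medians differed, so log2(intensity + 16) was quantile-normalized between arrays. Genes were named through the platform annotation (20380 probe sets with 1 symbol, 691 with several, 1555 unnamed here besides 64 controls) and a RefSeq table. Each of 12393 genes was read by its brightest probe set on average, and 10674 whose highest group mean passed the 25th percentile, 5.25, were tested. Limma 3.58.1 in R 4.3.3 fitted 6 group means, with Benjamini-Hochberg adjustment over these genes in each comparison and a threshold of 0.05. Groups came from the sample titles.

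The 9 genes and all gene lists were chosen with earlier results of these data known. All 9 were named in every group. Of each other list, the rule named at most the 4 genes with the highest mean level in their highest group, and it added the 6 genes most like the mean of the 9. Cd14 and Spi1 were named outside that rule, because they were called higher by day 5 of 6TCF. The comparisons of the arms at days 5 and 10, and the other probe sets of C1qb and Csf1r, were added after the data were seen. Intensity gives no depth. Precision is limited by how few arrays there are. Alternatives were other normalizations, pseudocounts, filters, probe set rules, fits, background lines and leaving out each array.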

Additional observations from a re-analysis of the deposited data

Results flagged for a closer look

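The change from day 0 differed between the arms for most of the 9 genes, by a limma test of that difference with Benjamini-Hochberg adjustment over 10674 genes. By day 5, SGCF minus 6TCF was -1.53 for C1qa, -1.27 for C1qb, -2.95 for Csf1r, -1.60 for Lyz2, -1.95 for Tyrobp, -1.34 for Adgre1, -0.88 for Cd68 and -1.11 for Fcer1g on the log2 scale. By day 10 it was -2.55 for C1qa, -2.59 for C1qb, -2.69 for Csf1r, -3.50 for Lyz2, -1.55 for Ctss, -3.20 for Tyrobp, -1.89 for Adgre1, -0.79 for Cd68 and -1.42 for Fcer1g. Each of these 17 measured differences is negative, with 2 arrays per arm and day. The Csf1r values are from its brightest probe set, and over the alternatives they came as near to 0 as -0.41 by day 5 and -0.34 by day 10. Under 6TCF, C1qa, C1qb, Tyrobp, Adgre1, Cd68 and Fcer1g were at background at day 5 and C1qa at day 10, so for them the 6TCF fall is a lower bound and which fall was larger is not shown. At day 10 of 6TCF, C1qb had 1 of 2 arrays at background. Ctss, Cd68 and Fcer1g averaged only 0.23, 0.23 and 0.11 above the line at that time, so the same limit applies. The part of array brightness, which coincided with the arm, was not tested.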

How the results depend on the processing

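The falls by day 5 in both arms and by day 10 of SGCF kept their counts of the 9 genes within 1.5 times under every alternative run. Of 2312 values of single genes under alternatives, 2194 kept direction and call, 76 kept direction and lost the call, 11 gained one and 31 turned sign. The cause was not tested where none is named.

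Counts of the 9 moved as follows. The late rises under 6TCF, and with them the genes that recover late, numbered 3 with a pseudocount of 64, and 1 to 5 on leaving out single arrays. The late fall under SGCF numbered 0 with median centring, without normalization, with a pseudocount of 64, with only the arm's own arrays, with eBayes with trend and robust settings, and with the replicate block, and 0 to 2 on leaving out arrays. Higher in SGCF at day 0 numbered 3 without normalization. Lower in SGCF at day 5 numbered 7 without normalization, 1 with median centring, 1 with a pseudocount of 64, 1 by either other Csf1r probe set, and 1 to 3 on leaving out arrays, and 1 was called higher with median centring. By the next brightest Csf1r probe set, 1 gene was called higher at day 5 of 6TCF. The more negative change under SGCF by day 5 numbered 5 to 8 on leaving out arrays. With the line at the 25th percentile of all probe sets, 1 and 3 genes were at background at days 5 and 10 of SGCF, and 1 and 0 on those days of 6TCF. With the 75th percentile of the silent genes they numbered 3 and 3, and 1 and 0.

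The following values changed sign, the difference between the arms at day 10 of Csf1r (-1.46) being the one that was called. For Csf1r they were -0.079 without normalization and -0.45 with all 4 day 0 arrays as 1 group (day 5 of 6TCF), 0.15 by its next brightest probe set and -0.17 to 0.074 on leaving out arrays (day 10 of 6TCF), -0.15 by the mean of its probe sets, -0.37 by the next brightest and -0.14 by the dimmest (late step of SGCF), and 0.0078 by the dimmest (arms at day 10). The late step of SGCF for C1qb turned to 0.11 with a pseudocount of 64 and 0.28 by another of its probe sets. Between the arms at day 0, Ctss turned to -0.22 without normalization. Between the arms at day 5, C1qa turned to -0.090 and Fcer1g to -0.46 without normalization, C1qb to 0.31, Ctss to 0.12 and Cd68 to 0.079 with median centring, and C1qb to 0.020 by its most variable probe set, also run as a named alternative. At day 10, Cd68 turned to -0.75 without normalization and Fcer1g to 0.016 with median centring. On leaving out arrays, the late step ranged from -0.037 to 0.13 for Fcer1g under 6TCF, and under SGCF from -0.74 to 0.031 for Lyz2 and -0.91 to 0.024 for Ctss. The arms then differed at day 5 by -0.47 to 0.27 for C1qb, -0.52 to 0.42 for Ctss and -0.12 to 0.028 for Cd68, and at day 10 by -0.14 to 0.24 for Cd68 and -0.18 to 0.035 for Fcer1g.

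Same-numbered arrays did not deviate together (r = -0.28 to 0.11 across genes), so the numbers do not pair them. The replicate block took the call from C1qa between days 5 and 10 of SGCF (-0.44, adjusted p = 0.0687 in limma) and changed no other call of the 9. Leaving out 1 array leaves its group with 1, assumed to vary like the others. Signal near background limits what the SGCF values at days 5 and 10 can show.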
